A study of Homo sapiens with 12 samples.

Results

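The genes described are the 37 genes of the human mitochondrial genome, namely 2 rRNAs, 13 mRNAs and 22 tRNAs, out of 60708 features in the deposited tables. They were chosen by Ensembl identifier, not by any measured value, and all 37 identifiers were present. RNA immunoprecipitation followed by sequencing was carried out in HK2 cells, a long-established line of human kidney epithelium. All cells, controls included, had received 10 µg of a plasmid for FLAG-hArid5a, human Arid5a (an RNA-binding protein) with a FLAG tag. The 4 groups of 3 libraries were mouse IgG1 with medium, mouse IgG1 with IL-17, anti-FLAG with medium and anti-FLAG with IL-17. IL-17, an inflammatory cytokine, was given at 200 ng/mL for 3 h. Precipitates with IgG, an antibody without a target in the cell, are the background control. No group lacks the plasmid and no library of unprecipitated RNA was among the 12, so a level here is an amount in a precipitate and not in a cell. No label states that the replicates were separate cultures, and the p-values therefore cover the spread among these libraries alone, part or all of which may be technical. Identifiers in the files come without names, so the labelled cell line was not checked against kidney markers.

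Human mitochondria keep a small circular genome of their own, transcribed from both strands into long RNAs that are cut at the tRNAs into single rRNAs, mRNAs and tRNAs. The rRNAs build the mitochondrial ribosome, and the mRNAs encode membrane subunits of the respiratory chain and ATP synthase. Kidney tubule cells are known for their many mitochondria. These RNAs are made and translated inside the organelle, apart from the cytoplasm and its RNA-binding proteins, so in a precipitate from a whole-cell lysate they are RNAs of another compartment.

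Both rRNAs and all 13 mRNAs had counts in each of the 12 libraries. The 22 tRNA rows, the adapters that bring amino acids to the ribosome, were listed at 0 in every library, by count and by TPM. A count of 0 allows up to 3 counts, which is 0.169 CPM (counts scaled to the library total) in the deepest library and 4.02 CPM in the shallowest. The tRNA genes are 59 to 75 bases long in RefSeq, below the mean fragment length of 148 to 228 bases that the deposited tables imply for the libraries. Whether the tRNAs were lost at library preparation or in counting was not tested. Being at 0 was common, since 12241 of the 60708 features had no count in any library.

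The rRNAs and mRNAs are given here with RefSeq coordinates on the mitochondrial sequence (MT) of GRCh38.p14. The 12S rRNA of the small ribosomal subunit lies at 648 to 1601 and the 16S rRNA of the large subunit at 1671 to 3229. The subunits of complex I, which takes electrons from NADH, are ND1 (3307 to 4262), ND2 (4470 to 5511), ND3 (10059 to 10404), ND4L (10470 to 10766), ND4 (10760 to 12137), ND5 (12337 to 14148) and ND6 (14149 to 14673). ND6 is the only one of these mRNAs read from the opposite strand. CYB (14747 to 15887) encodes cytochrome b, the only mitochondrially encoded subunit of complex III. CO1 (5904 to 7445), CO2 (7586 to 8269) and CO3 (9207 to 9990) encode the core of cytochrome c oxidase, complex IV, which reduces oxygen. ATP8 (8366 to 8572) and ATP6 (8527 to 9207) encode membrane subunits of ATP synthase. ATP8 and ATP6 share 46 bases and one RNA, ND4L and ND4 share 7 bases and one RNA, and ATP6 and CO3 share 1 base. The deposited ratio of count to TPM, which grows with the length available to fragments, matched the RefSeq length of the 12 genes of 500 bases or more within 0.315%. The results turn on CO1 (ENSG00000198804), CYB (ENSG00000198727), ATP8 (ENSG00000228253), the 12S rRNA (ENSG00000211459) and the 16S rRNA (ENSG00000210082). Among the 2 rRNA rows, the one with the longer length by this ratio was taken as the 16S rRNA.

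The total of estimated counts ran from 746911 in IgG medium replicate 1 to 17723136 in FLAG IL-17 replicate 1. Treatment groups differed in depth, with 746911 to 7563477 counts in the 6 medium libraries and 5365495 to 17723136 in the 6 IL-17 libraries. They also differed in implied mean fragment length, which was 206 to 228 bases in 5 of the medium libraries and 148 to 183 bases in the IL-17 libraries. IgG medium replicate 1, at 163 bases, lay within the IL-17 range. Thinned to 740000 counts, the libraries held 10594 to 32398 features, and FLAG medium replicate 1, IgG IL-17 replicate 1 and IgG medium replicate 2 held the most. These 3 and the shallowest library, IgG medium replicate 1, are called the libraries that stand apart.

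Mitochondrial RNA was a small part of the precipitates of both antibodies. The 15 genes together took 0.852%, 1.37% and 0.899% of the counts with IgG and medium, and 1.25%, 1.56% and 1.73% with IgG and IL-17. With FLAG they took 2.22%, 1.44% and 1.29% in medium and 1.96%, 1.90% and 0.887% with IL-17. The FLAG and IgG libraries overlapped at either treatment, so the background control carried mitochondrial RNA in the same range as the FLAG precipitates. In libraries of bulk RNA, fewer mitochondria or cells and less RNA in each cannot be told apart. The group means were 1.04% ± 0.284, 1.51% ± 0.245, 1.65% ± 0.500 and 1.58% ± 0.603 (SD, n = 3 each) in the order IgG medium, IgG IL-17, FLAG medium and FLAG IL-17.

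The rRNAs took up 12.1% to 38.6% of the mitochondrial counts. Their share of all counts was 0.180%, 0.189% and 0.109% with IgG in medium and 0.267%, 0.438% and 0.257% with IgG and IL-17. With FLAG it was 0.295%, 0.311% and 0.208% in medium and 0.510%, 0.734% and 0.237% with IL-17. The rRNA share was higher in every IL-17 library than in every medium library with IgG, while with FLAG 1 IL-17 library lay within the medium range. The mRNAs took 0.673% to 1.18% (IgG medium), 0.981% to 1.47% (IgG IL-17), 1.09% to 1.93% (FLAG medium) and 0.650% to 1.45% (FLAG IL-17), and these ranges overlapped.

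**Figure D1:**
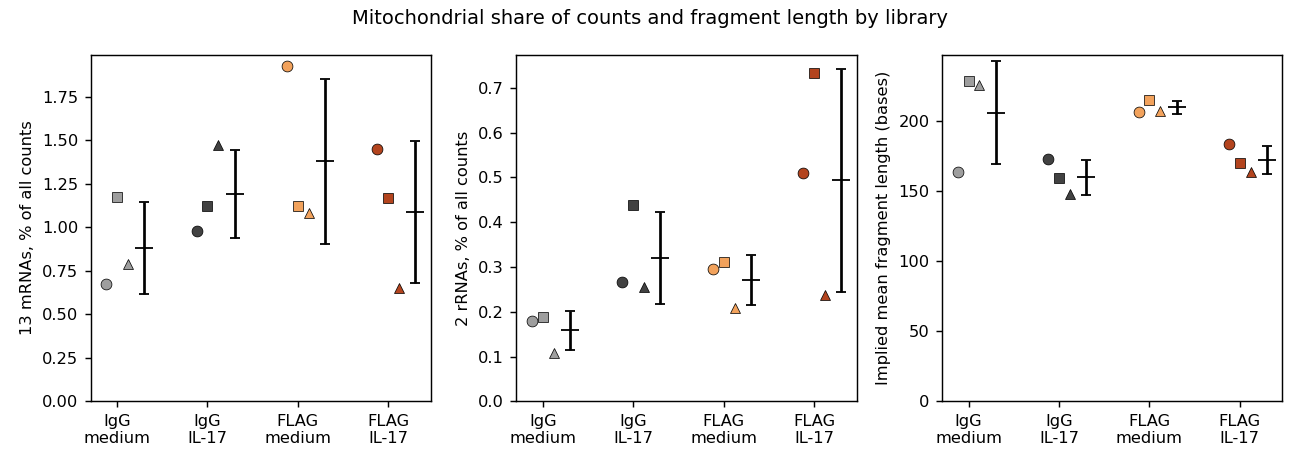
Share of all estimated counts taken by the 13 mitochondrial mRNAs (left) and the 2 rRNAs (middle), in percent, and the implied mean fragment length in bases (right), for each library in the 4 groups. Circles, squares and triangles are replicates 1, 2 and 3, and bars show the group mean ± SD (n = 3). The mRNA shares overlap between groups, while fragments are 148 to 183 bases long in the IL-17 libraries and 206 to 228 in all medium libraries but 1, at 163.

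By TPM, a level per length scaled to a fixed library total, the members lay close together in the typical library. Median TPM over the 12 libraries ran from 86.2 for ND3 to 216 for ATP8 and 211 for CO1. The 16S rRNA stood at a median of 206 TPM and the 12S rRNA at 108 TPM. In complex I, median TPM was 126 for ND1, 170 for ND2, 105 for ND4L, 163 for ND4, 120 for ND5 and 102 for ND6. CO2 had a median of 182 TPM and CO3 of 90.4 TPM, ATP6 of 157 TPM and CYB of 134 TPM. Neighbours in this order did not differ beyond their spread, since each gene varied more between libraries, for instance from 72.2 to 669 TPM for CO1 and from 33.2 to 611 TPM for CYB. By count, CO1 ranked 14th to 67th and the 16S rRNA 19th to 119th among all features of a library, and 3 to 10 of the 15 genes were among the 100 features with most counts.

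The TPM of the 3 shortest mRNAs leans on fragment length. Their effective length, as the deposited tables imply it, ran from 25.6 to 67.3 bases for ATP8, 84.9 to 152 bases for ND4L and 127 to 200 bases for ND3. ATP8 can thus differ 2.62-fold in TPM between libraries at the same share of counts. ND3, a small complex I subunit, had 1 low value, 1.29 TPM in IgG medium replicate 1, against 18.2 to 122 TPM in the other 11 libraries. There it had 2 of 5023 mRNA counts, 0.0398% (95% exact Clopper-Pearson interval 0.00482% to 0.144%, which covers counting error only), against 0.461% to 1.21% elsewhere. That library was the shallowest, and reads of amplified libraries are not independent molecules.

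**Figure D2:**
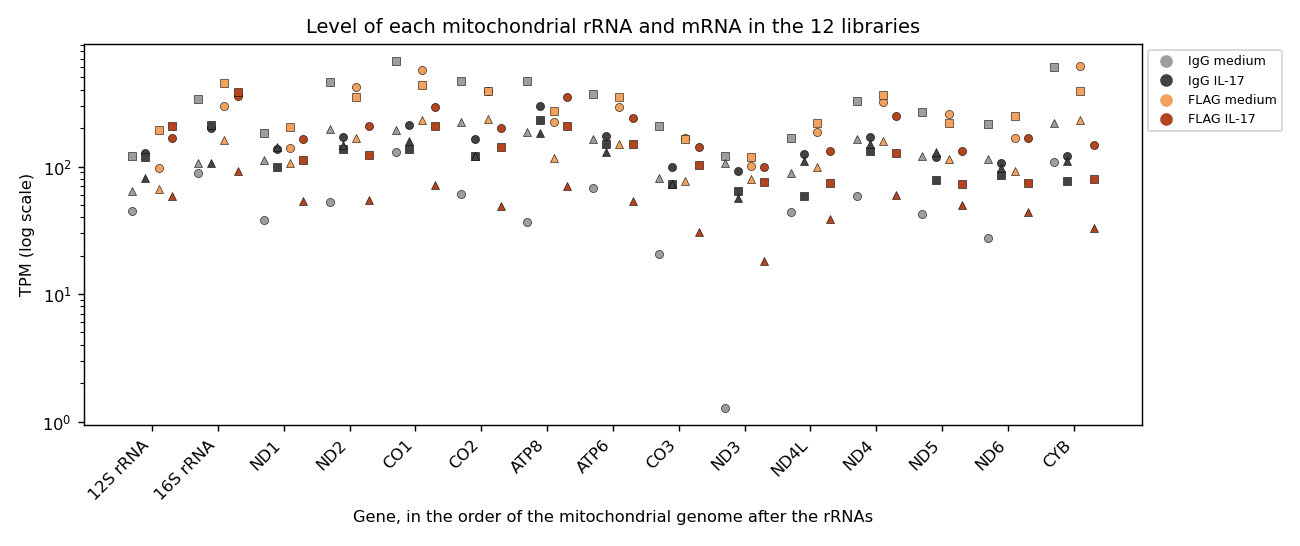
TPM (log scale) of the 2 rRNAs and 13 mRNAs in each of the 12 libraries, coloured by group, with circles, squares and triangles for replicates 1, 2 and 3. Each gene spans a wide range. Treatments overlap within each antibody for all genes but CO2 and CYB, whose FLAG IL-17 libraries all lie below the FLAG medium libraries. ND3 is at 1.29 TPM in IgG medium replicate 1.

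The first question the design poses is which RNAs the FLAG antibody recovered above IgG. No mitochondrial gene was called higher or lower with FLAG at either treatment by edgeR's quasi-likelihood test (Benjamini-Hochberg adjusted p under 0.05 over 24040 features). The background was the same, with 0% of features called in either direction. At an unadjusted p under 0.05, 0 of the 15 genes were higher or lower in medium (background 4.17% higher and 2.4% lower) and 0 with IL-17 (0.566% and 2.25%). DESeq2 and limma on log2 TPM called 0 members as well, but the share of all features they called here was not computed.

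The 16S rRNA stood in medium at 2215, 1092 and 801 scaled CPM with IgG and at 1669, 1891 and 1763 scaled CPM with FLAG; scaled CPM is CPM after TMM scaling between libraries. With IL-17 the 16S rRNA was at 1288, 3718 and 2557 scaled CPM with IgG and at 3943, 6666 and 2831 with FLAG. The antibodies overlapped at both treatments. The fitted FLAG over IgG log2 fold change of the 16S rRNA was 0.38 ± 0.64 (SE) in medium and 0.83 ± 0.65 with IL-17 (edgeR adjusted p = 1 and 0.923). CO1 had 3154, 2140 and 1440 scaled CPM with IgG in medium against 3180, 1786 and 2486 with FLAG. With IL-17 it had 1358, 2358 and 3779 scaled CPM with IgG against 3179, 3589 and 2200 with FLAG. CO1 levels overlapped too, with log2 fold changes of 0.15 ± 0.63 in medium and 0.26 ± 0.63 with IL-17 (edgeR adjusted p = 1 and 0.959). In other settings the CO1 value took the other sign at both treatments (-0.17 in medium with upper-quartile factors, -0.025 with IL-17 by limma).

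ND3 had the smallest p of the 15 in medium, with a log2 fold change of 0.71 ± 0.63 (edgeR adjusted p = 0.970). That value rests on the low IgG medium replicate 1, as ND3 read 4.24, 37.6 and 77.4 scaled CPM with IgG and 60.7, 49.9 and 93.5 with FLAG. In medium, the fitted change was above 0 for 14 of the 15 genes (background 58.4%), with a median of 0.35 beside 0.20 over all features. Without IgG medium replicate 2 that median was 0.38, below the 1.68 of all features. Only ND4, ND6 and CO3 had FLAG medium libraries all above the IgG medium libraries (3 of 15, background 5.07%), and none had them all below (1.11%). CO3, a subunit of the oxidase core, read 403, 292 and 356 scaled CPM with FLAG and 229, 281 and 255 with IgG. The gap was small against the FLAG spread. With upper-quartile scaling the fitted change in medium was above 0 for 7 of the 15 genes (background 53.9%). With IL-17, 4 of 15 genes were above 0 (background 39.8%; median -0.06 beside -0.33 over all features), and 0 had groups that did not overlap in either direction (14.6% higher, 12.3% lower).

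Averaged over both treatments, 0 genes were called by edgeR (background 0%), 0 had an unadjusted p under 0.05 (background 1.78% higher and 2.36% lower) and 12 of 15 were above 0 (background 46.9%). The log2 fold changes were 0.60 ± 0.46 for the 16S rRNA and 0.20 ± 0.44 for CO1 (edgeR adjusted p = 0.992 for both). The change of the FLAG over IgG difference with IL-17, an interaction, was 0.45 ± 0.91 for the 16S rRNA, 0.11 ± 0.89 for CO1 and -0.87 ± 0.88 for ND3 (edgeR adjusted p = 0.907, 0.980 and 0.821). No member was called for that change (background 0%), none had an unadjusted p under 0.05 (1.07% and 6.28%), and 3 of 15 were above 0 (39.1%). The median standard error of the 15 genes was 0.58 on the log2 scale at each treatment.

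The second question is how precipitates from IL-17 cells differed from those of medium cells. edgeR called 0 of 15 mitochondrial genes in the IgG precipitates (background 0.0125% higher, 0% lower) and 0 of 15 in the FLAG precipitates (0.22% and 0.00416%). In IgG, 6 genes had an unadjusted p under 0.05 and a higher level with IL-17, namely the 12S rRNA, ND1, ATP8, ND3, ND4L and ND6 (background 3.79%), and 0 a lower level (1.78%). In FLAG, the 12S rRNA and ATP8 had one (2 of 15, background 3.05%), and 0 were lower (7.86%). Both IL-17 comparisons were fitted on the same 12 libraries as the antibody comparisons and share their groups.

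ATP8, the smallest ATP synthase subunit of the genome, had the smallest p in both precipitates. Its scaled CPM was 38.2, 29.4 and 29.7 with IgG in medium and 70.6, 169 and 209 with IgG and IL-17. With FLAG it was 33.0, 24.9 and 33.2 in medium and 123, 134 and 87.7 with IL-17. All IL-17 libraries lay above all medium libraries, whichever the antibody. The ATP8 log2 fold change was 2.22 ± 0.54 in IgG and 1.92 ± 0.52 in FLAG, and neither passed the threshold (edgeR adjusted p = 0.275 and 0.258). DESeq2 called 1 gene higher in IgG, ATP8 (log2 fold change 2.0, adjusted p = 0.00134, background 0.77%), and 0 lower (background 1.29%). Over all alternatives the adjusted p of ATP8 in IgG ran from 0.000417 to 1. By limma on log2 TPM the ATP8 log2 fold change in FLAG was -0.16. ATP8 has the shortest effective length of the 15 genes, and fragment length moved with treatment; its part in this difference was not tested.

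Both rRNAs had fitted changes above 0 with IL-17, and neither was called. The 12S rRNA, singled out after its values were seen, had 632, 215 and 262 scaled CPM with IgG in medium and 470, 1177 and 1120 with IL-17. With FLAG it had 299, 441 and 399 scaled CPM in medium and 1042, 2061 and 1029 with IL-17. The FLAG groups did not overlap and the IgG groups did, with log2 fold changes of 1.33 ± 0.61 in IgG and 1.86 ± 0.61 in FLAG (edgeR adjusted p = 0.889 and 0.457). The 16S rRNA, with the scaled CPM given above, had log2 fold changes of 0.88 ± 0.65 in IgG and 1.34 ± 0.65 in FLAG (edgeR adjusted p = 1 and 0.457). CO1 was nearly level, at 0.16 ± 0.63 in IgG and 0.27 ± 0.63 in FLAG (edgeR adjusted p = 1 and 0.844), and took the other sign under other scalings in both.

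CYB, also singled out after its values were seen, was the only gene of the 15 with a fitted change below 0 in both precipitates. It read 1897, 1349 and 1135 scaled CPM with IgG in medium and 549, 941 and 1882 with IL-17. With FLAG it read 2366, 1116 and 1745 scaled CPM in medium and 1131, 969 and 718 with IL-17. The groups overlapped in both, and the log2 fold changes were -0.38 ± 0.60 in IgG and -0.89 ± 0.61 in FLAG (edgeR adjusted p = 1 and 0.509). DESeq2 called 1 gene lower in FLAG, CYB (log2 fold change -1.61, adjusted p = 0.0410, background 3.77%), and 0 higher (background 0.738%). Over all alternatives the adjusted p of CYB in FLAG ran from 0.0410 to 0.798.

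How far the mitochondrial genes as a whole stood from 0 with IL-17, and in FLAG on which side, depended on the scaling. With TMM, 14 of 15 genes were above 0 in IgG (background 57.2%, median 0.91 beside 0.18 over all features) and 14 of 15 in FLAG (background 43.7%, median 0.71 beside -0.29). With FLAG, 9 genes had IL-17 libraries all above the medium libraries (background 17.3%) and 0 all below (11%); with IgG, ATP8 and CO3 did (2 of 15, background 9.69%) and 0 were all below (1.93%). In FLAG the median was 0.09 with RLE factors (all features -0.89), 0.10 with library size alone (-0.92) and 0.39 with upper-quartile factors (-0.62). Under each of these count scalings, as with TMM, the median of the 15 genes lay above that of all features. By limma on log2(TPM + 1) it was -0.98, below the -0.19 of all features. By TPM, CO2 and CYB were the only genes of the 15 with FLAG IL-17 libraries all below the FLAG medium libraries (2 of 15, background 22.3%), and 0 were all above (1.87%). In IgG the median stayed above 0, at 0.11 by limma (all features -0.0057) and 0.54 with upper-quartile factors (all features 0.048).

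**Figure D3:**
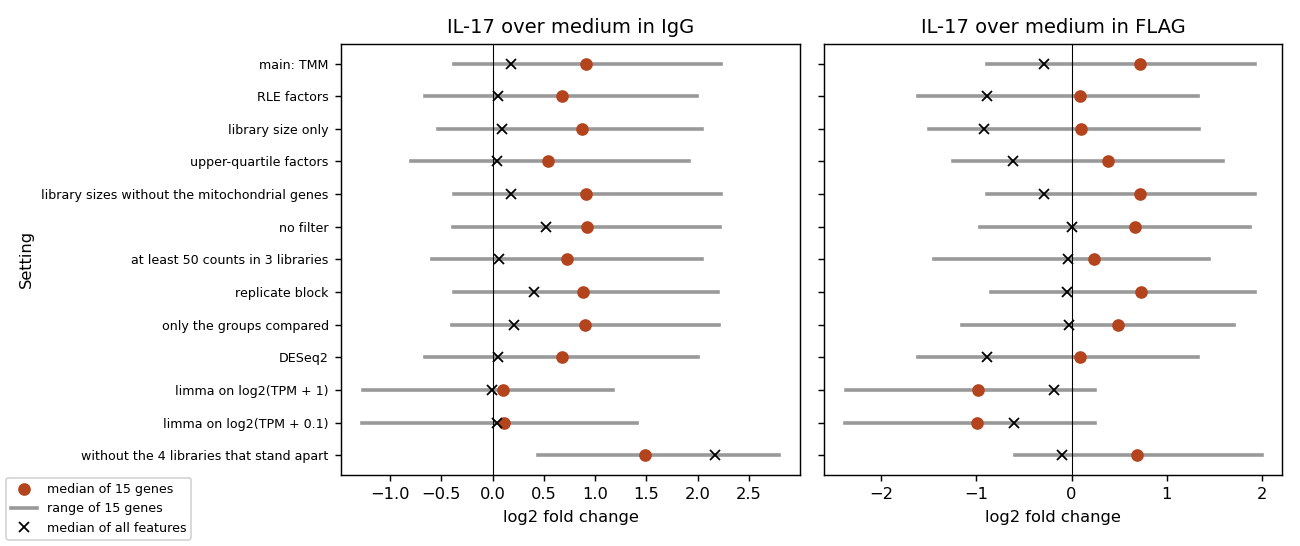
Median (circle) and range (line) of the log2 fold change of the 15 mitochondrial genes for IL-17 over medium, in IgG (left) and FLAG (right) precipitates, with the median of all features (cross), for each setting of the analysis. In FLAG the median of the 15 genes is 0.71 with TMM, 0.09 with RLE factors and -0.98 by limma on log2(TPM + 1). The medians of all features are -0.29, -0.89 and -0.19 in the same order.

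The libraries that stand apart also carried weight here. Without the 4, edgeR called 8 of 15 genes higher with IL-17 in IgG (12S rRNA, 16S rRNA, ND1, ATP8, ATP6, CO3, ND4L and ND6; background 4.13%) and 0 lower (1.52%). In FLAG it called 2 higher (12S rRNA and ATP8; background 1.61%) and 0 lower (0.651%). The IgG medium group then held a single library, taken to vary like the others. The median of the 15 genes in IgG was 1.49, below the 2.17 of all features. These calls were made after the data were seen and rest on 8 libraries.

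Within the mitochondrial genome, ratios between genes of one library do not depend on the scaling between libraries, though counts and TPM treat gene length differently. The largest of the 3 ratio differences was between CO1, the catalytic subunit of complex IV, and CYB of complex III. The CO1 to CYB ratio of TPM was 1.18, 1.10 and 0.883 with IgG in medium and 1.75, 1.78 and 1.43 with IgG and IL-17. With FLAG the ratio was 0.941, 1.12 and 0.997 in medium and 1.98, 2.62 and 2.17 with IL-17. All 6 IL-17 libraries lay above all 6 medium libraries. The geometric mean was 1.92 with IL-17 and 1.03 in medium, 1.86-fold higher, a log2 difference of 0.90 against a within-group SD of 0.18. In an exact two-sided permutation test within antibodies the p was 0.005, the smallest that the 400 arrangements can give, and 0.03 after Benjamini-Hochberg adjustment over the 6 ratio tests.

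The CO1 to CYB shift was 1.57-fold in IgG and 2.21-fold in FLAG, and a difference between them was not tested. The shift over both was 0.97 on the log2 scale without the 4 libraries that stand apart and 0.88 from counts in place of TPM. Leaving libraries out could not break the separation of the treatments. The ratio moved with treatment, as did depth and fragment length. IgG medium replicate 1, whose fragment length of 163 bases lay within the IL-17 range, had a CO1 to CYB ratio of 1.18. That ratio was the highest of the medium libraries and below those of all IL-17 libraries. IgG medium replicate 1 is a single library and the shallowest, and the part of depth and fragment length in the ratio was not tested. Between antibodies the CO1 to CYB ratio differed by 0.20 on the log2 scale (exact permutation p = 0.155, adjusted 0.198), at -0.04 in medium and 0.45 with IL-17.

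The 16S to 12S rRNA ratio, between the large and the small ribosomal subunit, was 1.99, 2.77 and 1.67 with IgG in medium and 1.55, 1.79 and 1.3 with IgG and IL-17. With FLAG it was 3.09, 2.36 and 2.44 in medium and 2.12, 1.83 and 1.56 with IL-17. It tended lower with IL-17, while medium and IL-17 libraries overlapped in IgG and not in FLAG. The log2 difference was -0.48 (exact permutation p = 0.01, adjusted 0.03), at -0.45 in IgG and -0.52 in FLAG. Without the 4 libraries that stand apart it was -0.26 (exact permutation p = 0.2). FLAG over IgG differed by 0.28 (exact permutation p = 0.07, adjusted 0.14).

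ND6 and ND5 lie next to each other on opposite strands, and their ratio sets an RNA of the light strand promoter against one of the heavy strand. The ND6 to ND5 ratio of TPM was 0.648, 0.794 and 0.946 (IgG medium), 0.904, 1.09 and 0.746 (IgG IL-17), 0.653, 1.12 and 0.807 (FLAG medium) and 1.28, 1.01 and 0.879 (FLAG IL-17). The 4 groups overlapped. The log2 differences were 0.26 for IL-17 over medium (exact permutation p = 0.165, adjusted 0.198) and 0.15 for FLAG over IgG (exact permutation p = 0.415, adjusted 0.415). From counts in place of TPM, the IL-17 difference was 0.40 (exact permutation p = 0.03, unadjusted). The strand setting of the counting is not stated, so reads of ND6 and reads from the other strand over it cannot be told apart.

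**Figure D4:**
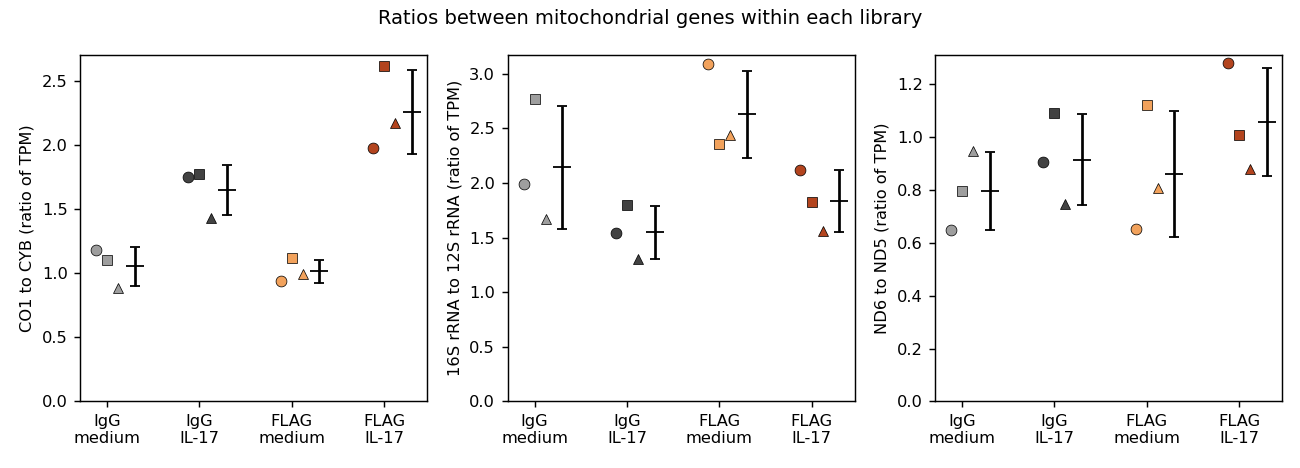
Ratio of TPM of CO1 to CYB (left), 16S to 12S rRNA (middle) and ND6 to ND5 (right) in each library of the 4 groups. Circles, squares and triangles are replicates 1, 2 and 3, and bars show the group mean ± SD (n = 3). The CO1 to CYB ratio lies between 0.883 and 1.18 in medium and between 1.43 and 2.62 with IL-17.

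The CO1 to CYB shift was mainly a shift of CYB. As a share of the summed TPM of the 13 mRNAs, CYB took 15.9%, 13.4% and 11.1% with IgG in medium and 6.08%, 5.33% and 6.90% with IgG and IL-17. With FLAG it took 15.9%, 10.4% and 12.5% in medium and 5.82%, 5.14% and 5.28% with IL-17. CYB ranked 1st to 3rd by TPM among the 13 mRNAs in the medium libraries and 9th to 11th in the IL-17 libraries. The share was 2.20-fold higher in medium with IgG and 2.35-fold higher with FLAG. CO1, by contrast, ranked 1st to 4th in medium and 1st to 3rd with IL-17, with a share of 9.84% to 18.7% and of 9.49% to 13.5%.

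ATP8 moved the other way, from 8.38% ± 2.66 of the summed mRNA TPM in IgG medium to 14.1% ± 2.41 in IgG IL-17, and from 6.48% ± 0.802 to 12.8% ± 1.44 in FLAG (SD, n = 3 each). ATP8 ranked 3rd to 10th in medium and 1st or 2nd with IL-17. Set against ATP6, with which it shares its RNA, ATP8 counts were 6.15%, 7.19% and 7.08% of ATP6 counts with IgG in medium and 17.1%, 17.4% and 17.6% with IL-17. With FLAG they were 5.75%, 4.91% and 5.82% in medium and 12.9%, 13.9% and 14.2% with IL-17. By TPM the ATP8 to ATP6 ratio was 0.548, 1.27 and 1.13 with IgG in medium and 1.72, 1.54 and 1.40 with IL-17. With FLAG it was 0.769, 0.785 and 0.778 in medium and 1.47, 1.37 and 1.31 with IL-17. On both scales all IL-17 libraries lay above all medium libraries, by TPM with a narrow gap. By counts all FLAG libraries also lay below all IgG libraries at either treatment, while by TPM the antibodies overlapped. ND4L and ND4, the other pair on one RNA, had TPM ratios of 0.507 to 0.752 in the medium libraries and 0.444 to 0.739 in the IL-17 libraries, which overlapped. ND4L counts were 8.54%, 3.74% and 4.08% of ND4 counts with IgG in medium and 7.88%, 5.16% and 9.12% with IL-17. With FLAG they were 5.11%, 4.75% and 5.37% in medium and 5.30%, 6.29% and 7.27% with IL-17. By counts too the treatments overlapped for this pair, and IgG medium replicate 1, with its shorter fragments, had the highest value of the medium libraries. The part of fragment length in either pair was not tested.

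Over all 15 genes, TPM divided by the summed TPM of the 13 mRNAs gave 3 genes with IL-17 libraries all above medium in IgG (ND1, ATP8 and ND4; background 5.82% of 27313 features) and 2 all below (CO2 and CYB; background 5.46%). In FLAG, 5 genes were all above (12S rRNA, 16S rRNA, ND1, ATP8 and CO3; background 5.46%) and 3 all below (ND2, CO2 and CYB; background 13%). ND1 and ATP8 were thus above, and CO2 and CYB below, in both precipitates. The divisor is made of the 13 mRNAs themselves, so their shares cannot all move the same way. Other features are not bound in this way, so these backgrounds are not like for like. By shares of counts in place of TPM, ND1, ATP8 and CYB kept groups that did not overlap in both, while CO2 overlapped in both (-0.12 in IgG and -0.25 in FLAG) and ND2 in FLAG (-0.10). By counts CO3 was also above without overlap in both (0.54 and 0.56), as were ND6 in IgG (0.56) and ND4L in FLAG (0.47). By TPM, on the log2 scale, ND1 shifted by 0.58 in IgG and 0.61 in FLAG, CO2 by -0.34 and -0.42, and CYB by -1.13 and -1.23. ATP8 shifted by 0.79 and 0.99, CO1 in IgG by -0.48, and ND3 in IgG, which carries the low replicate, by 1.58. The remaining mRNA shifts were at most 0.40 in size. FLAG against IgG, by TPM over the summed mRNA TPM, gave 0 genes in medium (background 3.78% higher and 2.13% lower), and with IL-17 CO1 higher (1 of 15, background 6.78%) and 0 lower (7.58%). By shares of counts CO1 overlapped with IL-17 (0.26). ATP8 was then lower with FLAG without overlap at both treatments (-0.39 in medium and -0.36 with IL-17), and ND2 with IL-17 (-0.16). The background by shares of counts was not computed.

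**Figure D5:**
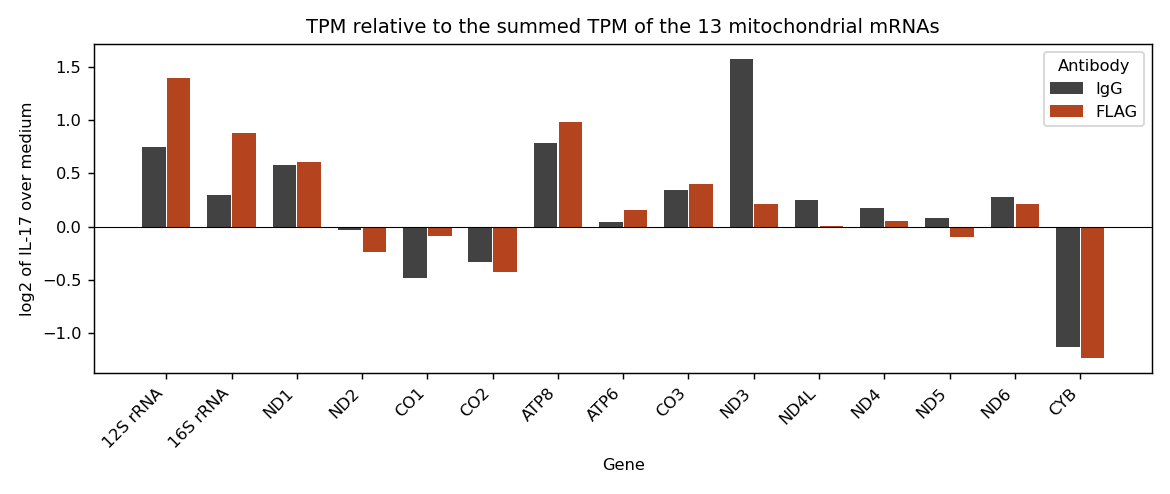
Log2 of IL-17 over medium for each gene's TPM relative to the summed TPM of the 13 mitochondrial mRNAs, from group means of log2 values, in IgG and FLAG precipitates. CYB falls furthest in both (-1.13 and -1.23), and ATP8 stands at 0.79 and 0.99.

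Gene length varied with these shifts. Across the 13 mRNAs, the shift with IL-17 correlated with RefSeq length at r = -0.52 in IgG and -0.41 in FLAG by TPM (Spearman rho -0.59 and -0.52), and at r = -0.64 and -0.55 by counts (rho -0.73 and -0.62). ND3, at 346 bases, had the largest shift in IgG, 1.58 by TPM and 2.04 by counts, against 0.21 by TPM in FLAG. Its IgG shift carries the low replicate, and no correlation without ND3 was computed. Genes are not independent replicates and all share the same libraries, so these correlations are descriptions without a test. The relation was loose, as ND5, the longest mRNA at 1812 bases, shifted by 0.08 in IgG and -0.10 in FLAG by TPM, and CO2, at 684 bases, went down. The part of length and fragment length in the shifts was not tested.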

How the data were processed

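Per the labels' protocols, RNA from FLAG or mouse IgG1 precipitates went into libraries made with a kit for very small amounts of RNA. The authors deposited estimated counts and TPM values per Ensembl gene. Although its name says FPKM, the second deposited table is in TPM, since all its columns share the total that TPM must have. The submitters' processing notes name GRCh38 and hg38 as builds, and RSEM 1.3.1, STAR 2.7.9, R 4.2.0 and DESeq2 1.36.0 as tools, with roles, annotation and strand setting not given in the sources used here. Estimated counts divide reads shared between similar sequences, and 9 of the 15 genes had counts that were not whole (tolerance 0); nuclear copies of mitochondrial sequence could take part of them.

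Estimated counts were rounded and fitted with edgeR 4.0.16 (R 4.3.3; quasi-likelihood test, TMM, at least 10 counts by filterByExpr, all 12 libraries and 4 groups in 1 fit, 24040 features, 6 comparisons, common dispersion 0.953). Alternatives used DESeq2 1.42.0, limma 3.58.1 on log2 TPM with a pseudocount of 1 or 0.1, other scalings and filters, fits without each library, and a replicate block. Ratios between genes were tested by exact permutation within strata. Mean fragment length was read from count over TPM against RefSeq length, over genes of 900 bases or more. Groups came from sample titles. Fitted changes are named for the 16S rRNA and CO1 and, for each comparison, for the gene with the smallest p; the 12S rRNA and CYB were added later. Members and lists were chosen with earlier results of these data known. Lists of nuclear respiratory genes and of cell type markers were not used, as the files do not pair identifiers with names. The scripts were tested on simulated data. No other columns of sample values were left unused (0).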

Additional observations from a re-analysis of the deposited data

How the results depend on the processing

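The CO1 to CYB difference with IL-17 kept its direction in all 14 alternatives, at 0.84 to 0.95 (log2) when single libraries were left out. From counts in place of TPM the exact permutation p was 0.005. All IL-17 libraries lay above all medium libraries by TPM, so leaving libraries out could not break that separation. An exact permutation p under 0.05 without single libraries (0.005 each time) was thus fixed in advance and adds no support. The 16S to 12S rRNA ratio with IL-17 was -0.57 to -0.38 without single libraries, and -0.26 without the 4 libraries that stand apart (exact permutation p = 0.2). FLAG over IgG, the 16S to 12S rRNA ratio was 0.20 to 0.38 without single libraries, past the threshold only without IgG medium replicate 2 (0.38, exact permutation p = 0.02). ND6 to ND5 with IL-17 was 0.40 from counts (exact permutation p = 0.03), and CO1 to CYB for FLAG over IgG was 0.37 without the 4 libraries (exact permutation p = 0.0333). The edgeR count of 0 called members held in the 4 FLAG over IgG comparisons under all 24 alternatives. The share of all features called under them was not computed. With IL-17 in IgG, DESeq2 called 1 gene higher, and the fit without the 4 libraries 8. With IL-17 in FLAG, DESeq2 called 1 lower, and the fit without the 4 libraries called 2 higher.

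The sign of small changes depended on scaling (log2 fold changes). For IL-17 in FLAG, CO1 was -0.42 (RLE), -0.35 (library size), -0.076 (upper quartile), -0.26 (at least 50 counts in 3 libraries), -0.42 (DESeq2), -1.23 (limma, TPM + 1) and -1.24 (limma, TPM + 0.1), and limma gave the 16S rRNA -0.27 and ATP8 -0.16 with either pseudocount. For IL-17 in IgG, CO1 was -0.13 (RLE), -0.28 (upper quartile), -0.062 (50 counts), -0.13 (DESeq2) and -0.62 (limma, both), and CYB was 0.44 without the 4 libraries. For the interaction, CO1 was -0.30 (RLE), -0.40 (library size), -0.20 (50 counts), -0.30 (DESeq2), -0.62 (limma, both) and -0.72 without the 4 libraries; the 16S rRNA was -0.16 (library size), -0.43 (limma, both) and -0.79 without the 4 libraries. For FLAG over IgG with upper-quartile scaling, in medium the 16S rRNA was -0.0072 and CO1 -0.17, and in the mean of both treatments CO1 was -0.062. With IL-17, CO1 was -0.025 and -0.026 by limma and -0.0066 without the 4 libraries. When single libraries were left out, CO1 ranged from -0.080 to 0.46 (FLAG over IgG in medium), -0.069 to 0.42 (with IL-17), -0.37 to 0.34 (interaction), -0.34 to 0.48 (IL-17 in IgG) and -0.40 to 0.48 (IL-17 in FLAG), and the 16S rRNA interaction from -0.23 to 0.70. The median of the 15 genes for IL-17 in FLAG was 0.71 with all libraries, beside -0.29 over all features. It was 0.12, 0.18 and 0.36 without FLAG IL-17 replicate 1, 2 or 3, beside -0.96, -1.06 and -0.88 over all features. It was 0.27 without IgG IL-17 replicate 2 or 3 (all features -0.96 and -0.95) and 0.18 without FLAG medium replicate 3 (-0.99). In each of these fits the median of all features fell as well. In IgG the median of the 15 genes was 0.58 without IgG IL-17 replicate 3 (all features 0.24) and 0.76 to 1.28 without any other single library. Without IgG medium replicate 2 it was 0.92, below the 1.67 of all features. Without any other single library it lay above the median of all features, as with all libraries. The cause was not tested.

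Deviations of same-numbered libraries correlated above 0.1 in 10 of 18 pairs (range -0.16 to 0.51), among them all 6 pairs of replicate 3. In none of the 4 pairs of groups compared did all 3 numbers do so, and the labels name nothing that a number shares, so the numbers were not taken as pairing. With the replicate number as a block, 0 members were called in the 6 comparisons, where the share of all features called was not computed. The median of the 15 genes was then 0.89 for IL-17 in IgG and 0.73 in FLAG. Depth limits IgG medium replicate 1 most, where ATP8 rested on 18 counts and ND3 on 2.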
